A study of Mus musculus with 20 samples.

Results

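In 20462 genes with a deposited H3K27me3 ChIP-seq value, 245 had a low value in wild type (WT) mouse embryonic stem (ES) cells and a clearly higher one in WT EB (embryoid bodies, aggregates in which ES cells differentiate). The genes were chosen by these measured values: a signal below 1.5 in WT ES, of at least 3 in WT EB, and a WT EB value at least 3 times that in ES. Their H3K27me3 gain in the WT libraries is therefore what selected them and is given as a description. The values followed here were the H3K27me3 libraries of p150-depleted cells, H3K4me3 in all groups and RNA levels. The genes included Pou5f1, Sox2, Nodal, Fgf4 and Klf4, which are active in ES cells.

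The study asked how CAF-1 acts when mouse ES cells leave pluripotency, and compared TL1 ES cells that were WT with TL1 cells depleted of p150 by CRISPR/Cas9 (the knockout, KO). ES cells were kept in medium with 15% FBS (fetal bovine serum) and LIF, and EB of both genotypes in the same medium without LIF, so serum was present in all groups. Each of the 4 groups (ES and EB, WT and KO) had 2 RNA-seq libraries and 1 ChIP-seq library for each of H3K27me3 and H3K4me3, and 4 input libraries were not analysed here. The guide and whether the KO is 1 clone or a pool are not given in the sources used here, and the titles of the EB ChIP samples carry a 7 before EB that the labels do not explain.

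H3K27me3 is the mark that the PRC2 complex places on histone H3, and it is typical of silent genes in facultative heterochromatin, the kind that a cell can form and remove again. PRC1 complexes can bind it through their Cbx subunits. H3K4me3 marks the start of active genes, and in ES cells many developmental genes carry both marks. CAF-1, whose large subunit p150 is encoded by Chaf1a, deposits new histones H3 and H4 behind the replication fork. When ES cells differentiate, pluripotency genes are turned off and some acquire H3K27me3.

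Promoter sequences of 4 genes of the set are shown because they are ES cell genes with some of the highest WT EB H3K27me3 values of the pluripotency genes in it. They cover 250 bases before to 50 after the RefSeq start, on the plus strand of GRCm38.p6, the assembly that mm10 is based on, 5′ to 3′, with CG dinucleotides in capitals. Fgf4 lies at chr7:144861136-144861435, Pou5f1 at chr17:35505782-35506081, Nodal at chr10:61417722-61418021 and Utf1 at chr7:139943606-139943905.
Fgf4: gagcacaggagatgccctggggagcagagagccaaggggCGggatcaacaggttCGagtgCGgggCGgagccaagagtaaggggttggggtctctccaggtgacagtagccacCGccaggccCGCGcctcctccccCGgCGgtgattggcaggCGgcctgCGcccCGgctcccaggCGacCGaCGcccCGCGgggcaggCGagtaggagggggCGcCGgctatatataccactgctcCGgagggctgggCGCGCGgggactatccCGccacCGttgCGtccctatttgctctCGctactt
Pou5f1: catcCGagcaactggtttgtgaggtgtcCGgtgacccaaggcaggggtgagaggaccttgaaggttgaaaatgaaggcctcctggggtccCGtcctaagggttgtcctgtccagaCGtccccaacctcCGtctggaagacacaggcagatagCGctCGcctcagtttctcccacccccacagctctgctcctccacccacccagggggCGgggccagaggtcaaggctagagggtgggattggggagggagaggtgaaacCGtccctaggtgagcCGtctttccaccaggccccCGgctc
Nodal: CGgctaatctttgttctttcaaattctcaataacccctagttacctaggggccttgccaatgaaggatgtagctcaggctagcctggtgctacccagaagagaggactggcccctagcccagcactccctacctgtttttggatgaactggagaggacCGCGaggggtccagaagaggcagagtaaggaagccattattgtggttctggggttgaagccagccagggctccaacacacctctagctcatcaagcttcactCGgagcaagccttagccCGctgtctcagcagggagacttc
Utf1: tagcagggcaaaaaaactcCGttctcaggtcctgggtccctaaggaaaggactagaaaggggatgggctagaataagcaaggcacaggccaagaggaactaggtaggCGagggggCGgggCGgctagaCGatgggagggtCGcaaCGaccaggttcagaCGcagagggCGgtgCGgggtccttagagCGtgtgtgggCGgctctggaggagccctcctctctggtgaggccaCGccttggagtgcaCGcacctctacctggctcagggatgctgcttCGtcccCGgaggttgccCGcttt
These sequences held 28 CG in Fgf4, 17 in Utf1, 11 in Pou5f1 and 5 in Nodal. Over 27025 RefSeq promoters of the same length, 1 per gene, the median was 7, with quartiles of 3 and 20. Fgf4 was thus above the upper quartile, Utf1 and Pou5f1 were between the median and the upper quartile, and Nodal was below the median. The GC box letters GGGCGG, searched on both strands, were in the Fgf4, Pou5f1 and Utf1 windows, not in that of Nodal, and in 35.9% of all promoters. The octamer ATGCAAAT, also searched on both strands, was in none of the 4 windows and in 1.77% of all promoters. A promoter was found in the table for 176 of the 245 genes (71.8%), under the 80% needed, so the composition of the set as a whole was not checked.

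All 245 genes had H3K4me3 values and 237 had a row in the RNA table, 10 of them under a synonym. Testing required 1 FPKM in 2 or more of the 8 RNA libraries, which 210 of the set reached and 27 with a row did not. A gene can pass this filter through the group in which it is high, so counts over the 210 do not speak for all 245. FPKM gives no read counts, so depth is unknown, and nothing says whether the 2 libraries of a group came from separate cultures, so p-values measure only the spread between these libraries. Chaf1a RNA was 49.5 and 43.0 FPKM in WT ES against 48.1 and 38.0 in KO ES, and 31.7 and 32.1 in WT EB against 31.6 and 35.0 in KO EB. The genotypes overlapped at both stages, and the RNA level of Chaf1a does not check the loss of its protein.

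The limits of the rule cut through a continuous range. Just inside the ES limit were Cacng7, Lama5 and Lrriq4 at 1.49 in WT ES, and just outside were Ap1m2, Calcoco2 and Esrp2 at 1.52. At the EB limit, Bccip, Pif1 and Ubxn11 were at 3.00 in WT EB, while Gjd3 at 2.96 and Dgka and F11r at 2.88 were left out. On the ratio, Lifr at 3.06, Pgs1 at 3.08 and Aldh2 at 3.11 were inside. St6galnac6 at 3.00 after rounding, Ly6g6c at 2.97 and Klk1b21 at 2.93 were outside. Requiring a ratio of at least 5 would keep 183 genes.

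The set had shorter loci than the table as a whole, and most of its genes were transcribed in ES cells. The median locus length was 7780 bp over the 237 genes with a locus, against 18871 bp over 19023 genes of the table, and 55.7% were under 10 kb against 32.7%. The H3K27me3 values grew with locus length across genes (Spearman's rho from 0.59 to 0.69 in the 4 libraries). The part of length in the choice of the genes was not tested. Chromosome 7 held 36 of the 237 (15.2%, against 9.44% of all), chromosome 11 held 26 (11.0%, against 7.79%) and chromosome 4 held 23 (9.70%, against 5.91%). In WT ES, 198 of the 237 had a mean of at least 1 FPKM and 138 of at least 10 FPKM. H3K4me3 in WT ES was at or above the median of all genes in 174 of the 245.

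The pluripotency list was the gene list with the most genes in the set, 21 of its 54, among them Eras, Fbxo15, Fgf4, Jam2, Klf2, Klf4, Klf5, L1td1, Lifr, Nodal, Nr0b1, Pou5f1, Sox2, Spry4, Tdgf1, Tdh, Tfcp2l1, Utf1 and Zfp296. Of the 33 others, 12 were at 1.5 or more in WT ES, 22 were under 3 in WT EB and 14 were under 3 times their ES value. The formative and primed epiblast list gave 3 of 21 (Foxd3, Sox3 and Utf1), FGF and MAPK feedback 3 of 20 (Fgf4, Fgf17 and Spry4) and Nodal and TGF-beta signalling 2 of 17 (Nodal and Tdgf1). Single genes came from the PRC2 list (1 of 15, Epop), PRC1 (1 of 21, Cbx7), endoderm (1 of 27, Epcam), neuroectoderm (1 of 23, Tubb3) and imprinted genes (1 of 26, Phlda2). The mesoderm, trophoblast, Hox, germline, cardiomyocyte, blood and fibroblast lists gave 0, as did H3K4 enzymes, DNA methylation, histone chaperones, p53 targets and ribosomal proteins. The set held 245 of 20462 genes, so counts of 0 or 1 in such short lists say little. Nor does 0 mean no gain. In lists with 0, the median H3K27me3 log2 ratio of WT EB over ES ran from -0.32 (cardiomyocyte) to 1.97 (Hox). It was 0.99 for mesoderm, against -0.03 over all genes. The part of the ES limit in these counts was not tested.

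H3K27me3 of the 245 genes was low in ES cells of both genotypes, high in WT EB and in between in KO EB. The median signal was 0.934 in WT ES and 0.800 in KO ES. It was 6.24 in WT EB, from 3.00 to 49.8, and 2.16 in KO EB, from 0.213 to 8.30. Over all genes the medians hardly differed, at 1.65, 1.63, 1.56 and 1.79 in the same order. With 1 library per group these ChIP differences have no replicate check and no test.

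**Figure D1:**
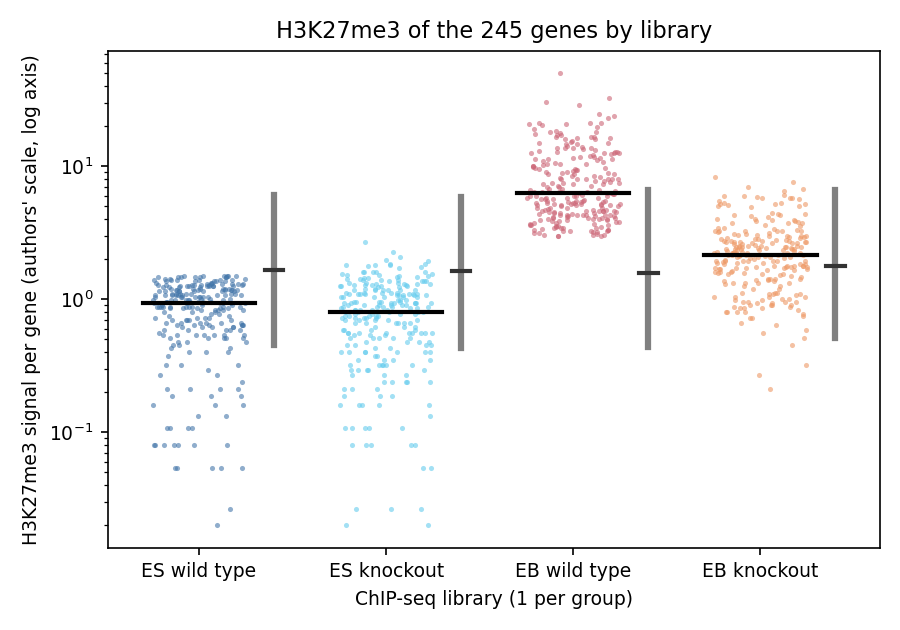
H3K27me3 signal of each of the 245 genes (points, authors' scale, log axis) in the 4 ChIP-seq libraries, with the median of the set as a black line and the median and quartiles of all 20462 genes in grey. Genes at or near 0 are drawn at the bottom of each column. The set sits at a median of 6.24 in WT EB, above all its ES values, and at 2.16 in KO EB.

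The KO libraries took no part in the choice of the genes, and H3K27me3 was higher in KO EB than in KO ES in 242 of the 245. The median log2 ratio was 1.40, a 2.65-fold difference, against 0.09 over all genes. In 167 genes KO EB was at least 2-fold higher and in 0 at least 2-fold lower, where 7.60% of all genes were that much higher and 1.55% lower. The same ratio in WT, which the rule used, had a median of 2.85, with 245 genes at least 2-fold higher and 0 lower, against 11.8% and 9.02% of all genes. In ES cells the KO and WT libraries were close, with a median log2 ratio of -0.05. There 5 genes were at least 2-fold higher and 14 lower in the KO, against 1.14% and 2.43% of all genes.

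In EB, H3K27me3 was lower in the KO than in WT in 238 of the 245 genes. The median log2 ratio of KO over WT EB was -1.79, which puts the KO at 0.289 times WT, against a median of 0.10 over all genes. In 196 genes it was at least 2-fold lower and in 0 at least 2-fold higher, where 6.72% of all genes were that much lower and 5.82% higher. This ratio uses the WT EB library on which the genes were selected, so its direction is tied to the choice. In KO EB, 58 of the 245 reached 3 and 120 were at least 3 times their KO ES value. Over all genes the KO EB median was 1.79 and the upper quartile 6.62, so reaching 3 was not particular to the set. The share of all genes at 3 times their KO ES value was not computed.

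The same 3 limits applied to the KO ES and EB libraries, a set defined after the data were seen, chose 82 genes. They shared 39 with the 245, which is 15.9% of the 245 and 47.6% of the 82. In those 82 genes the median was 4.70 in KO EB, on which they were chosen, and 15.1 in WT EB. Wild type EB was at 3 or more in 78 of them and WT ES was below 1.5 in 43. Among the shared genes the highest KO EB values were those of Cltb at 7.60, Lama5 at 6.78, Tgm1 at 6.48, Bcl3 at 6.11 and Ltbp4 at 5.92.

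**Figure D2:**
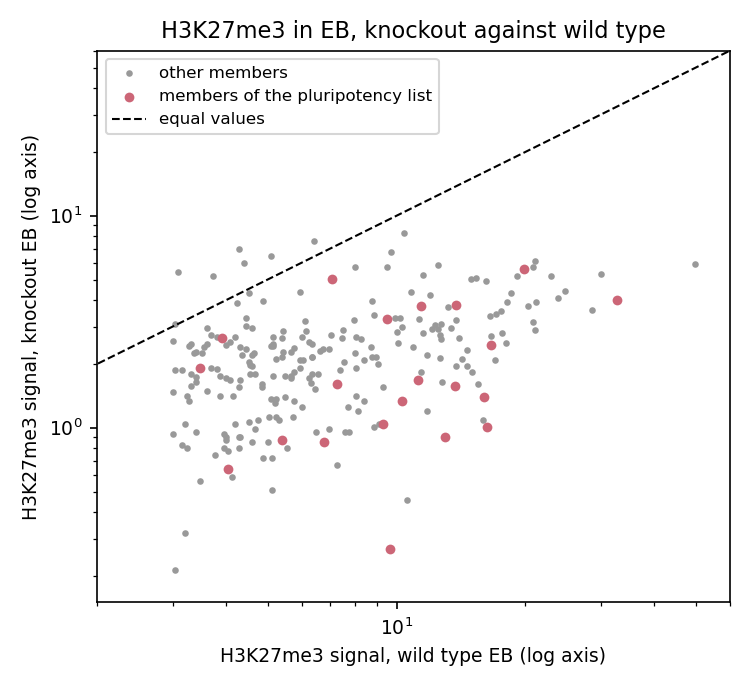
H3K27me3 signal of the 245 genes in KO EB (vertical) against WT EB (horizontal), both on log axes, with the 21 genes of the pluripotency list in red and equal values as a dashed line. All but 7 genes lie below the line, and the horizontal values start at the limit of 3 set by the rule.

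The highest WT EB value was that of Ltbp4, which encodes a binding protein of latent TGF-beta: its H3K27me3 was 1.20 in WT ES, 0.907 in KO ES, 49.8 in WT EB and 5.92 in KO EB. Fgf4, a growth factor that ES cells secrete, had 0.187, 0.667, 32.7 and 4.00 in the same order. Tcf15, a transcription factor gene active in ES cells, had 0.960, 1.33, 30.1 and 5.31. In these genes the KO EB value was above both ES values and far below WT EB. Foxd3, a transcription factor of ES cells and neural crest, had 1.07, 1.09, 28.6 and 3.60. Ina, which encodes the neuronal filament protein alpha-internexin, had 0.800, 0.667, 23.8 and 4.11. Fgf17, another FGF ligand, had 0.587, 1.04, 22.9 and 5.18. The remaining genes of the 12 highest in WT EB were Lbx1 (24.7), Adrb3 (21.2), Bcl3 (21.1), Nkx2-4 (21.0), Mafa (20.8) and Tubb3 (20.8), and their KO EB values ran from 2.88 in Nkx2-4 to 6.11 in Bcl3.

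For 7 genes the KO EB value was at or above WT EB, and they are named here after their values were seen: Cltb, Gfpt2, Krt17, Krt42, Pgs1, Tgm1 and Tha1. Krt17 and Krt42 encode keratins and lie close together on chromosome 11 (from position 100256217 to 100261029 and from 100262882 to 100269871, mm10). Krt17 had 3.08 in WT EB and 5.44 in KO EB, and Krt42 had 4.40 and 5.98. Tgm1, a transglutaminase that cross-links the cornified envelope of skin, had 5.08 and 6.48. Gfpt2, an enzyme of hexosamine synthesis, had 4.28 and 6.94, and Cltb, a clathrin light chain, had 6.40 and 7.60. Tha1 had 3.72 and 5.20, and Pgs1 was nearly equal at 3.04 and 3.07. All 7 were also higher in KO EB than in KO ES, where their values ran from 1.04 in Pgs1 to 2.08 in Gfpt2.

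Marker genes of several cell types moved with the groups that are compared below. The summed FPKM of 8 ES cell markers was 6646 and 6239 in WT ES, 6221 and 5949 in KO ES, 298 and 543 in WT EB, and 7784 and 5520 in KO EB. All 8 were called lower in WT EB than in ES and higher in KO than in WT EB, and 4 of them (Pou5f1, Sox2, Tdgf1 and Utf1) belong to the 245 genes. Each of these 4 was lower in both KO EB libraries than in every ES library, so the KO EB sum does not describe them. Sums over 8 cardiomyocyte markers were 13.7 and 10.8 in WT ES, 4640 and 3364 in WT EB, and 29.3 and 276 in KO EB, where 1 of the 8 was at 0 in both libraries. Blood and endothelium markers summed to 1836 and 533 in WT EB and 54.0 and 84.1 in KO EB, feeder or fibroblast markers to 1364 and 1463 against 132 and 303, and endoderm markers to 287 and 367 against 48.7 and 119. Of the 4 neural markers 3 had an RNA row. These summed to 6.46 and 5.62 in WT ES, 8.02 and 6.06 in KO ES, 24.6 and 29.2 in WT EB, and 3.88 and 8.25 in KO EB. The part of these cells in the results was not tested, and in bulk samples fewer cells of a type cannot be told apart from less RNA or less of a mark per cell.

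RNA of most genes of the set fell when WT ES cells became EB. Of the 210 tested, 163 (77.6%) were called lower and 17 (8.10%) higher at an adjusted p under 0.05 (limma on log2(FPKM + 1), Benjamini-Hochberg over all genes). Over all 15424 genes tested, 24.8% were called lower and 36.2% higher. The median log2 difference was -1.60, against 0.12 over all genes, and 146 of the 163 were at least 2-fold lower. With quantile normalization, the median over all genes was -0.11 in place of 0.12. ES cell markers fell and differentiated cell markers rose between the same groups, as given above.

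**Figure D3:**
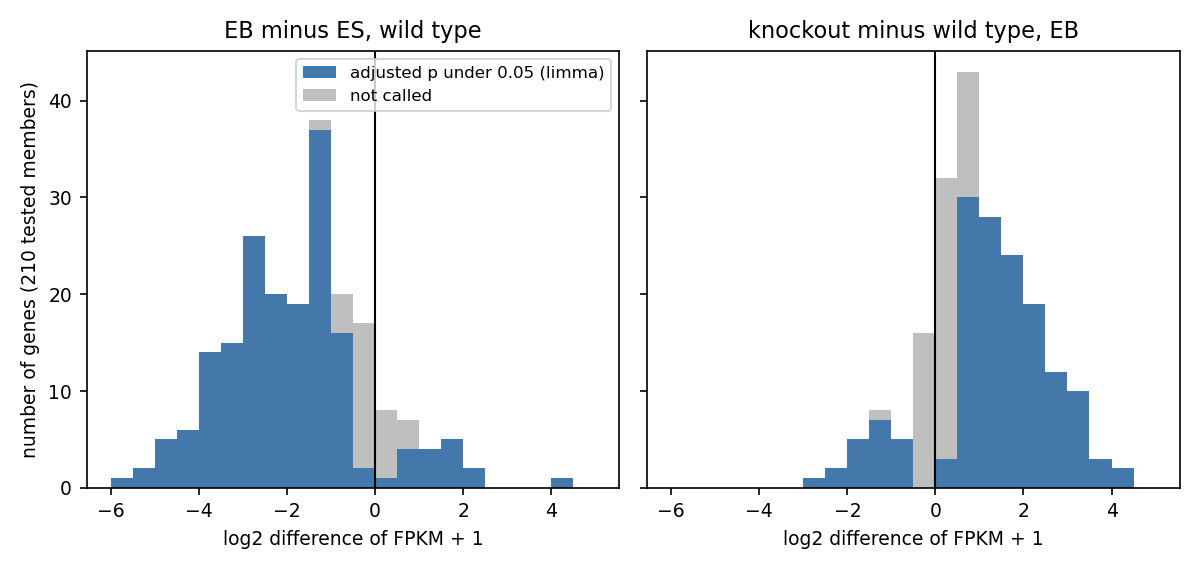
Distribution of log2 differences of FPKM + 1 over the 210 tested genes of the set (horizontal) as number of genes (vertical), for EB minus ES in WT (left) and KO minus WT in EB (right), with genes at an adjusted p under 0.05 in blue and the others in grey. Most genes are below 0 on the left, with a median of -1.60, and above 0 on the right, with a median of 0.95. Both panels use the WT EB libraries.

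The median fall was smaller in KO cells and fewer genes were called. Between ES and EB of the KO, 93 of the 210 (44.3%) were called lower and 6 (2.86%) higher, against 12% and 17.1% of all genes. The median log2 difference was -0.68, against 0.07 over all genes. The count of lower genes was 65 without replicate 2 of KO EB, and that of higher genes was 2 without replicate 1 of KO ES and 3 without replicate 1 of KO EB. Within EB, 131 of the 210 (62.4%) were called higher in the KO than in WT and 20 (9.52%) lower, against 20.0% and 25.9% of all genes. The median there was 0.95, against -0.06 over all genes. These comparisons share their EB libraries, so their counts are not independent of each other.

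The KO effect in EB differed from that in ES for many genes of the set. By limma's interaction term, 97 of the 210 (46.2%) were called with a higher and 16 (7.62%) with a lower KO effect in EB than in ES, against 12.7% and 18.6% of all genes. The median difference of effects was 0.91 on the log2 scale, against -0.10 over all genes. The lower count came to 8 without replicate 1 of WT ES or replicate 2 of WT EB, and to 9 without replicate 2 of WT ES or replicate 1 of KO EB. In ES cells themselves 1 gene was called higher in the KO (Adrb3) and 1 lower (Fgf17), 0.476% each, against 0.421% and 0.0778% of all genes, with a median log2 difference of 0.02.

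Pou5f1 encodes Oct4, the transcription factor at the core of the pluripotency network (chromosome 17, 35506018 to 35510772, mm10). Its RNA was 1298 and 1233 FPKM in WT ES, 1074 and 946 in KO ES, 35.3 and 65.9 in WT EB, and 547 and 508 in KO EB. The WT EB libraries were far below all others, and no groups overlapped. It fell in WT by 4.68 on the log2 scale (SE 0.26, adjusted p = 3.16e-05, limma) and was higher in KO than in WT EB by 3.42 (SE 0.26, adjusted p = 0.000325). H3K27me3 at Pou5f1 was 0.133 in both ES libraries, 16.6 in WT EB and 2.45 in KO EB. H3K4me3 was 40.2, 40.3, 10.5 and 39.3 in WT ES, KO ES, WT EB and KO EB, so only WT EB stood apart.

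Sox2, the partner of Oct4, had 280 and 297 FPKM in WT ES, 250 and 281 in KO ES, 41.3 and 62.5 in WT EB, and 227 and 178 in KO EB. Its H3K27me3 was 0.0534, 0.0267, 6.76 and 0.854 in the same order of groups. Utf1, a chromatin protein of ES cells, had 720 and 733, 592 and 420, 19 and 37.5, and 288 and 240 FPKM. In both genes every KO EB library was above every WT EB library. Utf1 was higher in KO EB by 3.25 (SE 0.30, adjusted p = 0.000531) and Sox2 by 1.96 (SE 0.20, adjusted p = 0.000766, limma).

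L1td1, an RNA-binding protein of ES cells derived from a LINE-1 element, had 483 and 484 FPKM in WT ES, 520 and 429 in KO ES, 11.1 and 18.6 in WT EB, and 233 and 214 in KO EB. Tdh, the threonine dehydrogenase that feeds one-carbon metabolism of mouse ES cells, had 299 and 273, 255 and 206, 7.62 and 15.6, and 220 and 196 FPKM. In Tdh the KO EB libraries overlapped the KO ES libraries. Both were higher in KO than in WT EB, Tdh by 4.13 (SE 0.28, adjusted p = 0.000261) and L1td1 by 3.86 (SE 0.22, adjusted p = 0.000166, limma). H3K4me3 at Tdh was 76.8 and 60.6 in WT and KO ES, 9.31 in WT EB and 61.6 in KO EB, so it was low in WT EB alone. Its H3K27me3 was 11.4 in WT EB and 3.74 in KO EB.

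Nr0b1, an orphan nuclear receptor on the X chromosome known as Dax1, had 112 and 112 FPKM in WT ES, 115 and 63.7 in KO ES, 0.725 and 2.33 in WT EB, and 30.4 and 24.9 in KO EB. It had the largest fall of the set in WT, -5.56 (SE 0.36, adjusted p = 4.55e-05, limma). Eras, an ES cell Ras protein, had 50.3 and 64.9, 54.2 and 67.6, 3.15 and 2.57, and 35.2 and 32.8 FPKM. In both genes KO EB lay between KO ES and WT EB without overlap.

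Klf2, Klf4 and Klf5, the Klf factors of the pluripotency list in the set, stood at different distances from WT EB in the KO. They are transcription factors of the ES cell state, and the difference between them was not tested. Klf5 had 124 and 127 FPKM in WT ES, 115 and 138 in KO ES, 5.82 and 8.80 in WT EB, and 57.4 and 48.8 in KO EB, and was higher in KO EB by 2.72 (SE 0.19, adjusted p = 0.000261, limma). Klf2 had 218 and 291, 143 and 236, 25.7 and 31.3, and 115 and 89.4 FPKM. Klf4 had 129 and 107, 124 and 102, 5.74 and 9.06, and 17.9 and 10.9, so its KO EB libraries were nearer to WT EB. Klf4 was higher in KO EB by 0.86 (SE 0.27, adjusted p = 0.0369). The Klf4 call was lost without replicate 1 of KO EB or of WT EB and without either WT ES library, and its adjusted p ran from 0.0146 to 0.204 over the alternatives.

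**Figure D4:**
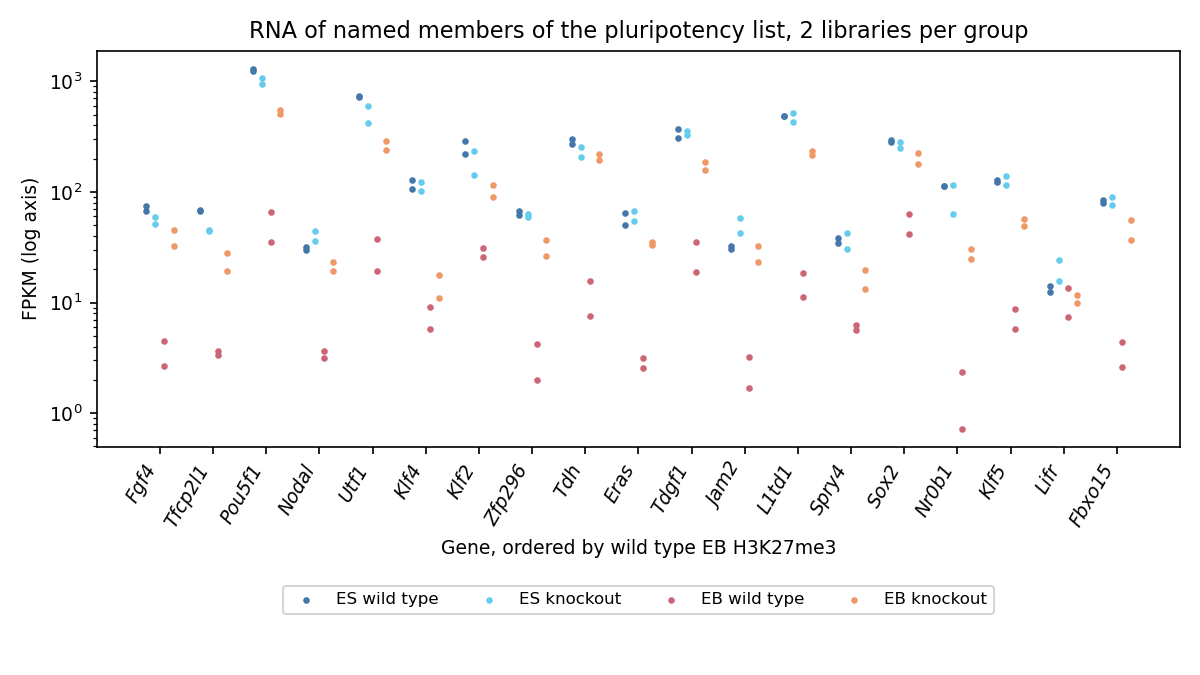
FPKM (log axis) of 19 of the 21 pluripotency genes of the set in the 8 RNA libraries, 1 point per library, genes ordered by their WT EB H3K27me3. The WT EB points (red) are the lowest of each gene except Lifr, and the KO EB points (orange) are below all ES points (blue) in 17 of the 19 genes drawn.

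Over the 21 pluripotency genes, 20 fell in WT and 20 were called higher in KO than in WT EB, against 24.8% and 20.0% of all genes. In the whole list of 54 these counts were 51 and 48, so most genes of the list outside the set had the same directions. Among the 21, the exception in both was Lifr, the LIF receptor subunit, with 12.4 and 14.1 FPKM in WT ES, 7.42 and 13.4 in WT EB, and 9.90 and 11.6 in KO EB. Between ES and EB of the KO 13 were called lower, and this count fell to 5 without replicate 2 of KO EB, to 6 without replicate 1 of KO ES, to 7 without replicate 1 of KO EB and to 8 without replicate 2 of KO ES. With all libraries, 23 of the whole list of 54 were called lower between ES and EB of the KO, against 12% of all genes. The list was chosen with earlier results of these data known, so these counts are no independent evidence of its direction. Further genes of the list, named after their values were seen, were higher in KO EB too, Zfp296 by 3.03, Tfcp2l1 by 2.44, Fbxo15 by 3.39 and Jam2 by 3.07 on the log2 scale.

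Over these 21 genes H3K27me3 was highest in WT EB, and H3K4me3 was lowest there in all but Klf2 and Klf4. Their median H3K27me3 was 0.213 in WT ES, 0.240 in KO ES, 10.3 in WT EB and 1.60 in KO EB. Between KO ES and EB the median log2 ratio was 1.92, and 19 of 21 were at least 2-fold higher, against 7.60% of all genes. Median H3K4me3 was 30.4 in WT ES, 29.9 in KO ES, 12.9 in WT EB and 29.5 in KO EB. In WT EB 12 of the 21 had at least 2-fold less H3K4me3 than in ES, with a median log2 ratio of -1.36, and in the KO 0 did, with a median of -0.08. Over all genes 10.9% in WT and 1.94% in the KO had at least 2-fold less. The summed ES cell markers were near their ES level in KO EB and far below it in WT EB. Of these markers, Pou5f1, Sox2, Tdgf1 and Utf1, which are in the set, were each below every ES library in both KO EB libraries. The part of the markers in these values was not tested.

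Of the signalling ligands, Fgf4 and Nodal fell in WT. Fgf4 RNA was 74.1 and 66.5 FPKM in WT ES, 51.2 and 58.8 in KO ES, 2.64 and 4.45 in WT EB, and 45.1 and 32.1 in KO EB. The KO EB libraries were below the ES libraries and well above WT EB, by 3.13 (SE 0.23, adjusted p = 0.000316, limma). Nodal, a TGF-beta family ligand, had 29.6 and 31.5, 36.3 and 44.1, 3.18 and 3.61, and 19.3 and 23.4 FPKM (chromosome 10, 61417972 to 61425338, mm10). It was higher in KO than in WT EB by 2.34 (SE 0.15, adjusted p = 0.000239). Tdgf1, the Nodal co-receptor Cripto, had 308 and 367, 330 and 355, 35.0 and 18.9, and 186 and 159 FPKM, again without overlap of the EB groups. H3K4me3 at Tdgf1 was 36.5 and 37.9 in the ES libraries, 6.16 in WT EB and 28.0 in KO EB.

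Fgf17, the other FGF ligand of the set, had its lowest levels in both EB groups. Its RNA was 27 and 33.5 FPKM in WT ES, 7.02 and 8.23 in KO ES, 0.262 and 0.622 in WT EB, and 0.536 and 1.22 in KO EB, so the EB groups overlapped. It was lower in KO than in WT ES by 1.85 (SE 0.24, adjusted p = 0.0367, limma), and its EB difference was 0.37 (SE 0.24, adjusted p = 0.259). The ES call was lost when any of the 4 ES libraries or either WT EB library was left out, with an adjusted p from 0.0260 to 0.253 over the alternatives. Spry4, a feedback inhibitor of FGF signalling, had 34.4 and 38.1, 42.5 and 30.2, 5.67 and 6.27, and 13.2 and 19.5 FPKM, and was higher in KO EB by 1.29 (SE 0.22, adjusted p = 0.00379). Adrb3, a beta-adrenergic receptor, was higher in KO ES (16.8 and 16.3 FPKM) than in WT ES (4.70 and 5.77), by 1.5 (SE 0.21, adjusted p = 0.0424). That call was lost whichever 1 of the 8 libraries was left out, with an adjusted p from 0.0424 to 0.244 over the alternatives.

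Socs3 and Bcl3, known targets of LIF signalling through STAT3 and picked after their values were seen, fell in both genotypes. Socs3, the feedback inhibitor of this pathway (chromosome 11, 117966079 to 117970047, mm10), had 89.4 and 85.7 FPKM in WT ES, 77.5 and 74.8 in KO ES, 5.99 and 8.10 in WT EB, and 10.1 and 5.64 in KO EB. The EB groups overlapped and differed by 0.11 (SE 0.24, adjusted p = 0.748, limma), while the fall was 3.47 in WT (adjusted p = 5.40e-05) and 3.17 in the KO (adjusted p = 0.000789). H3K27me3 at Socs3 was 0.0800 and 0.160 in WT and KO ES, 9.48 in WT EB and 5.74 in KO EB. Bcl3, a nuclear IkB protein, had 62.2 and 50.7, 44.3 and 32.0, 2.66 and 3.51, and 5.10 and 3.44 FPKM, with overlapping EB groups. LIF was left out of the medium of both EB groups, and its part in these falls was not tested. Socs3 and Bcl3 were picked by their values, so they do not speak for other LIF targets.

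Gli1, a transcription factor and target of Hedgehog signalling, also named after its values were seen, fell in both genotypes. It had 22.5 and 28.4 FPKM in WT ES, 24.6 and 30.2 in KO ES, 5.27 and 6.19 in WT EB, and 3.04 and 2.74 in KO EB, and so was lowest in KO EB. Gli1 was lower in KO than in WT EB by 0.79 (log2 difference -0.79, SE 0.17, adjusted p = 0.00973, limma), and the call was lost without replicate 2 of WT EB, with an adjusted p from 0.00700 to 0.0626 over the alternatives. H3K27me3 at Gli1 was 13.2 in WT EB and 3.71 in KO EB, so lower H3K27me3 in KO EB did not go with higher RNA there.

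Among Polycomb genes, Epop (listed as E130012A19Rik), a PRC2 partner that links it to elongin, had 567 and 528 FPKM in WT ES, 484 and 360 in KO ES, 30.5 and 41.7 in WT EB, and 79.3 and 78.3 in KO EB. It fell in WT by 3.90 (SE 0.18, adjusted p = 2.65e-05, limma) and in the KO by 2.39 (SE 0.18, adjusted p = 0.000789). Its H3K27me3 was 0.0267 and 0.107 in WT and KO ES, 10.6 in WT EB and 0.454 in KO EB. Cbx7, the main Cbx subunit of PRC1 in ES cells, had 115 and 127, 104 and 119, 8.09 and 15.1, and 95.1 and 67.1 FPKM. Its EB groups were far apart, by 2.74 (SE 0.28, adjusted p = 0.000693). Its H3K27me3 was 9.28 in WT EB and 1.55 in KO EB.

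RNA of the enzymes that write and remove the mark was followed as well. Of 15 tested genes of the PRC2 and demethylase list, 7 were lower and 3 higher in WT EB than in ES, and 10 were higher and 2 lower in KO than in WT EB. Over all genes 24.8% were lower and 36.2% higher in WT EB, and 20.0% higher and 25.9% lower in KO EB. The 10 became 6 without replicate 1 of KO EB. The catalytic subunit Ezh2 had 57.2 and 70.1 FPKM in WT ES, 57.7 and 53.7 in WT EB and 74.9 and 66.7 in KO EB. The KO minus WT difference in EB was 0.34 (SE 0.12, adjusted p = 0.0609, limma). The core subunits Eed (220 and 196, then 50.0 and 47.5, then 133 and 113 FPKM in the same groups) and Suz12 (71.3 and 52.8, 26.3 and 33.2, and 101 and 83.5) were higher in KO EB, by 1.32 (SE 0.11, adjusted p = 0.000433) and 1.60 (SE 0.20, adjusted p = 0.00125). Jarid2, which recruits PRC2, was higher there too, by 1.37 (SE 0.11, adjusted p = 0.000370). The demethylase genes differed in direction. Kdm6b was lower, with 34.3 and 33.2 FPKM in WT EB and 12.2 and 16.5 in KO EB (log2 difference -1.19, SE 0.18, adjusted p = 0.00235). Kdm6a was higher, with 23.8 and 21.4 against 31.0 and 31.5 (0.45, SE 0.11, adjusted p = 0.0157, limma). The Kdm6a call was lost when some single libraries were left out. Uty was not called (0.14, SE 0.14, adjusted p = 0.441). Their part in the H3K27me3 values was not tested.

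Other ES-expressed genes with a large gap between EB genotypes were Rbmxl2, Tdrd12, Klf9, Hspb1 and the metallothioneins, most named after their values were seen. Rbmxl2, an RNA-binding protein gene best known from testis, had 125 and 193 FPKM in WT ES, 111 and 144 in KO ES, 1.08 and 4.69 in WT EB, and 46.3 and 43.3 in KO EB. Tdrd12, a Tudor domain protein of the germline piRNA pathway, had 27.6 and 44.5, 22.9 and 43.9, 1.40 and 2.82, and 57.3 and 39.9 FPKM, with 1 KO EB library above all ES libraries and 1 within their range. It was higher in KO than in WT EB by 4.01 (SE 0.39, adjusted p = 0.000594, limma). Mt2, a metal-binding protein, had 769 and 663 FPKM in WT ES, 960 and 710 in KO ES, 134 and 92.7 in WT EB, and 1040 and 792 in KO EB. Mt1, its neighbour, was likewise higher in KO EB (850 and 672 against 187 and 99.1 FPKM), whereas the difference for Mt3 was 0.95 (SE 0.38, adjusted p = 0.0800). Hspb1, a small heat shock protein, had 79.2 and 104 FPKM in WT EB and 810 and 601 in KO EB.

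Tcf15 and Foxd3 fell in both genotypes, less in the KO. Tcf15 had 123 and 93.6 FPKM in WT ES, 109 and 70.1 in KO ES, 3.19 and 6.03 in WT EB, and 26.0 and 28.5 in KO EB. Foxd3 had 66.4 and 62.5, 54.9 and 46.0, 0.972 and 2.48, and 9.65 and 10.1 FPKM. In both the KO EB libraries lay between ES and WT EB, above the latter by 2.38 (SE 0.30, adjusted p = 0.00130) and 2.05 (SE 0.25, adjusted p = 0.00123, limma). Ina had 36.2 and 39.9 FPKM in WT ES, 35.7 and 40.0 in KO ES, 2.05 and 3.35 in WT EB, and 19.6 and 21.2 in KO EB. Ltbp4 had 136 and 108, 145 and 110, 8.12 and 14.2, and 26.0 and 19.2, and was higher in KO EB by 0.98 (SE 0.28, adjusted p = 0.0248). The Ltbp4 call was lost without replicate 1 of KO EB or of WT EB, with an adjusted p from 0.0114 to 0.145 over the alternatives.

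Trh, the gene of thyrotropin-releasing hormone, had EB minus ES differences of opposite sign in the 2 genotypes. It had 244 and 257 FPKM in WT ES, 127 and 127 in KO ES, 61.4 and 99.0 in WT EB, and 233 and 413 in KO EB. Its levels were thus lower in WT EB than in ES, and higher in KO EB than in KO ES. The rise in the KO had an adjusted p of 0.0192 (limma). That call was lost without a filter on low FPKM, without either KO ES library and without replicate 2 of KO EB. The difference of KO effects between EB and ES was 2.95 (SE 0.42, adjusted p = 0.00478, limma).

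The 7 genes with as much H3K27me3 in KO EB included several that were low in both EB groups. Krt42 had 55.0 and 50.0 FPKM in WT ES, 33.1 and 36.9 in KO ES, 0.112 and 0.507 in WT EB, and 5.42 and 3.66 in KO EB. It was higher in KO than in WT EB by 2.08 (SE 0.21, adjusted p = 0.000740, limma). Krt17 had 24.0 and 19.2, 9.90 and 12, 0.189 and 0.115, and 1.66 and 1.54, and was higher by 1.17 (SE 0.18, adjusted p = 0.00270). Gfpt2, with 8.97 and 9.11 FPKM in WT EB and 17.2 and 20.4 in KO EB, was also higher, by 0.97 (SE 0.16, adjusted p = 0.00302). Pgs1 had 15.9 and 17.9 against 16.0 and 17.3, which is -0.02 on the log2 scale (SE 0.12, adjusted p = 0.916). Tgm1 and Cltb were called higher as well (adjusted p = 0.0208 and 0.0445, limma), but both calls were lost under several alternatives. So in Krt42, Krt17 and Gfpt2, and less firmly in Tgm1 and Cltb, RNA was higher in KO EB while H3K27me3 was not lower there.

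A group of 39 genes had under 1 FPKM in WT ES, so their RNA was already low in ES cells. Lbx1 and Nkx2-4, homeobox genes of muscle and brain development, had H3K27me3 of 1.47 and 1.04 in WT ES, 24.7 and 21.0 in WT EB, and 4.43 and 2.88 in KO EB. Their RNA was at most 0.533 FPKM in Lbx1 and 0.460 in Nkx2-4 over the 8 libraries, under the limit for testing. Median H3K27me3 over the 39 was 5.20 in WT EB and 2.21 in KO EB. In the 138 genes at 10 FPKM or more in ES it was 6.52 and 1.97. Of the 39, only 12 passed the filter, and of these 8 were called higher in WT EB than in ES, while 1 was higher and 6 lower in KO than in WT EB. Of the 138, 118 were called lower in WT EB than in ES, and 103 were higher and 9 lower in KO than in WT EB. In the 60 genes at 1 to 10 FPKM, 45 were lower in WT EB, and 27 were higher and 5 lower in the KO. Over all genes tested 24.8% were lower and 36.2% higher in WT EB, and 20.0% were higher and 25.9% lower in KO EB. The classes were split on WT ES FPKM, which is part of the WT difference counted. The 12 tested of the 39 also had to reach 1 FPKM in a group other than WT ES to pass the filter. Their counts are tied to this filter and are descriptions only. Mafa, a factor of pancreatic beta cells which is among these 60, had 2.16 and 2.2 FPKM in WT ES, 3.63 and 3.98 in KO ES, 0.376 and 0.299 in WT EB, and 1.09 and 0.672 in KO EB.

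The 17 genes whose RNA rose in WT EB, where their H3K27me3 was also higher, included Cldn5, the claudin of endothelial tight junctions. It had 1.30 and 0.838 FPKM in WT ES, 1.29 and 0.470 in KO ES, 46.9 and 42.4 in WT EB, and 3.38 and 8.34 in KO EB. It rose in WT by 4.47 (SE 0.38, adjusted p = 9.33e-05) and was lower in KO than in WT EB (log2 difference -2.83, SE 0.38, adjusted p = 0.00162, limma). H3K27me3 at Cldn5 was 13.4 in WT EB and 2.96 in KO EB. The summed blood and endothelium markers were high in the WT EB libraries in which Cldn5 was high, and their part in its level was not tested.

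Foxe1, a forkhead factor of thyroid development, had 0.233 and 0.0380 FPKM in WT ES, 0.341 and 0.225 in KO ES, 3.46 and 4.04 in WT EB, and 0.106 and 0.286 in KO EB. Prkcdbp, the caveolar protein cavin-3, had 0.324 and 0.138, 0.996 and 0.934, 4.37 and 4.52, and 0.426 and 0.744 FPKM. C2cd4b had 0.865 and 0.732, 1.17 and 0.708, 5.52 and 4.49, and 0.256 and 0.328 FPKM. In these genes the WT EB libraries alone were high. Foxe1 and Prkcdbp reached 1 FPKM in the WT EB libraries only, so they passed the filter through the group in which they were high. Foxe1, Prkcdbp and C2cd4b were lower in KO than in WT EB, with log2 differences of -1.99, -1.79 and -2.21 (adjusted p = 0.000527, 0.000697 and 0.000450, limma). Cited4, a co-activator of CBP and p300, had 13.8 and 8.51 FPKM in WT EB and 1.83 and 1.64 in KO EB. H3K4me3 at Foxe1 was 3.25 and 3.50 in the ES libraries, 11.0 in WT EB and 6.22 in KO EB, so both marks were highest in WT EB.

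Hist3h2ba, a histone H2B gene, rose in WT from 0.887 and 3.28 to 7.84 and 11.2 FPKM, by 1.87 (SE 0.45, adjusted p = 0.00899, limma), and the call was lost without replicate 2 of WT EB, with an adjusted p from 0.00250 to 0.0614 over the alternatives. Crb3, a polarity protein of epithelia, rose in both genotypes, from 11.5 and 8.52 to 18.8 and 20.4 FPKM in WT and from 14.9 and 12.9 to 30.2 and 29.4 in the KO. The rises were 0.91 (SE 0.16, adjusted p = 0.00205) and 1.05 (SE 0.16, adjusted p = 0.00499). Egfl7, secreted by endothelium, rose in WT from 25.9 and 25.5 to 80.3 and 54.7 FPKM, by 1.33 (SE 0.21, adjusted p = 0.00125). H3K27me3 at Crb3 was 1.28 in WT ES, 12.6 in WT EB and 2.13 in KO EB.

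Some genes of the set kept much of their RNA in WT EB. Epcam, an adhesion protein of ES cells and epithelia, had 56.9 and 48.2 FPKM in WT ES, 70.0 and 73.4 in KO ES, 46.6 and 44.2 in WT EB, and 107 and 91.0 in KO EB. Its H3K27me3 was 0.880, 0.454, 15.0 and 1.84 in the same order. The WT difference was -0.20 (SE 0.12, adjusted p = 0.189, limma), and KO EB was higher than WT EB by 1.10 (SE 0.12, adjusted p = 0.000908). Sox3, a neural and primed epiblast factor, was at 2.29 and 2.33 FPKM in WT ES and 3.03 and 4.05 in WT EB, with a difference of 0.45 (SE 0.24, adjusted p = 0.153). Phlda2, an imprinted growth regulator, had 85.3 and 122 FPKM in WT ES, 146 and 259 in KO ES, 65.2 and 61.1 in WT EB, and 54.5 and 56.8 in KO EB. Its WT difference of -0.69 (SE 0.27) had an adjusted p of 0.0628, which was under 0.05 with a replicate block (0.038), with only the groups of the contrast (0.031), without replicate 1 of WT ES and without either KO ES library, and ran from 0.0152 to 0.294 over the alternatives.

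Among the 20 genes called lower in KO EB, Pcolce, an enhancer of procollagen processing, had 97.5 and 82.8 FPKM in WT ES, 143 and 94.7 in KO ES, 34.0 and 67.6 in WT EB, and 8.25 and 17.5 in KO EB. It was lower in KO than in WT EB (log2 difference -1.90, SE 0.42, adjusted p = 0.00946, limma), and the call was lost without replicate 1 of KO EB or replicate 2 of WT EB, with an adjusted p from 0.00852 to 0.0601 over the alternatives. Ppp1r1a, a protein phosphatase inhibitor named after its values were seen, had 20.1 and 17.6, 9.68 and 12.4, 17.4 and 15.6, and 3.25 and 5.10 FPKM. It had the highest KO EB H3K27me3 of the set, 8.30, against 10.4 in WT EB. Its RNA was lower in KO EB (log2 difference -1.78, SE 0.21, adjusted p = 0.00110).

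H3K4me3 of the set was lower in WT EB than in the other groups, with medians of 15.8 in WT ES, 17.6 in KO ES, 12.9 in WT EB and 17.4 in KO EB. Between ES and EB of WT the median log2 ratio was -0.36, against 0.03 over all genes, with 63 genes at least 2-fold lower and 18 higher, where 10.9% and 9.28% of all genes were. In the KO the median was 0.09, with 5 genes at least 2-fold lower and 6 higher, against 1.94% and 1.35% of all genes. In EB the KO over WT ratio had a median of 0.36, with 61 genes at least 2-fold higher and 5 lower, against 8.55% and 3.24%. In ES cells that ratio was 0.02, with 0 genes at least 2-fold higher and 0 lower, against 0.743% and 0.318%.

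**Figure D5:**
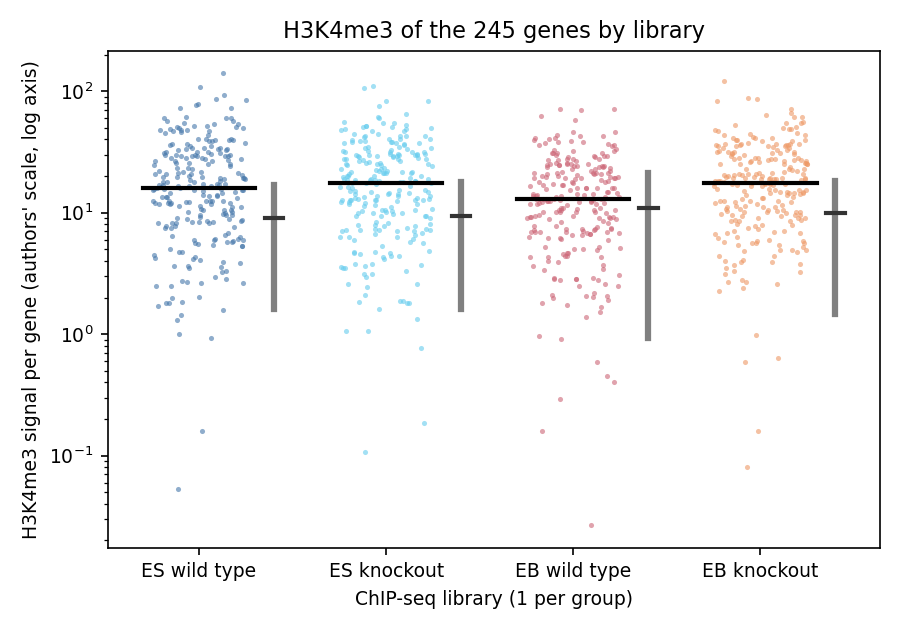
H3K4me3 signal of each of the 245 genes (points, authors' scale, log axis) in the 4 ChIP-seq libraries, with the median of the set as a black line and the median and quartiles of all genes in grey. The medians of the set are 15.8, 17.6, 12.9 and 17.4 from left to right, the lowest in WT EB, and the clouds overlap widely.

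The H3K4me3 ratio of WT EB over ES differed by locus length. In the 105 genes with loci of 10 kb or more, the median log2 ratio of WT EB over ES was -0.61, with 38 at least 2-fold lower and 1 higher, against 10.2% and 8.65% of all genes of that length. In the 132 under 10 kb it was 0.04, with 23 lower and 16 higher, against 11.4% and 11.3% of all genes of that length. With each library divided by its median, the median over the set was -0.65, with 83 lower, against 15.7% of all genes. These settings were added after the data were seen. Within the set, H3K4me3 also went with the RNA call. Over the 163 genes that fell in WT the median was -0.59 and 52 were at least 2-fold lower. Over the 17 that rose it was 0.45 and 0 were lower. Over all genes 10.9% were at least 2-fold lower. The shares among all genes whose RNA fell or rose were not computed, so whether this is particular to the set is not known. In the KO libraries those same 163 genes had a median of 0.02. Within EB, the KO over WT ratio in the 132 loci under 10 kb had 31 genes at least 2-fold higher and 5 lower. The shares of all genes of that length were 11.1% and 3.16%.

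The direction of H3K4me3 also differed between named genes with high H3K27me3 in WT EB. Klf4 had 27.9, 29.9, 32.4 and 28.3 in WT ES, KO ES, WT EB and KO EB, without a drop. Socs3 had 26.4, 28.7, 35.8 and 22.6, and Epop had 24.4, 31.6, 40.9 and 39.2. In these genes RNA fell in WT while H3K4me3 was highest in WT EB. Fgf4 had 27.7, 25.6, 9.23 and 28.4, and Tdrd12 had 27.7, 32.8, 3.98 and 20.4, so here the mark was low in WT EB with the RNA.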

How the data were processed

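RNA-seq (8 libraries, 4 groups of 2) and ChIP-seq (8 libraries, 1 per mark, stage and genotype) of TL1 cells were analysed. The deposited RNA table holds FPKM computed by the authors, whose columns, per the file headers, are those of Cufflinks output. The submitters' processing notes name the build mm10 and, without roles, Cufflinks 2.2.1, STAR 2.6.0a, DESeq2, HTSeq and Bowtie2. For ChIP, the authors deposited 1 signal value per gene and library. The table names call it RPKM on promoters, but H3K27me3 values grew with locus length, which was not computed for H3K4me3. Values of both marks were therefore taken as a signal on the authors' scale that can be compared within a gene only. The window and the number of mapped reads are not given in the sources used here, so ChIP depth is unknown, and FPKM totals of 641813 to 782026 per library give no read depth either. Nearly all ChIP values came in steps of 0.0267 (0.0400 in wild type EB H3K27me3), so ratios of genes at a few steps are imprecise. The design had assumed RPKM on promoters, and its ratios were kept as written.

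Of 53560 RNA rows, 120 second entries of a symbol were left out. limma 3.58.1 (R 4.3.3, trend) was fitted to log2(FPKM + 1) of 15424 genes that reached 1 FPKM in 2 or more libraries, with 4 group means (4 residual degrees of freedom, 7.05 after moderation), and two-sided p-values were adjusted over all genes (Benjamini-Hochberg). Fold changes on this scale understate the change of genes with low FPKM. ChIP ratios were log2((a + 0.1)/(b + 0.1)), without a test. The limma step was tested on simulated data. Alternatives were other pseudocounts, filters and scalings, a replicate block, only the groups of a contrast, each library left out, other limits of the rule and short loci. The genes and lists were chosen with earlier results of these data known. Named genes were the 12 with the highest wild type EB H3K27me3, those with the largest changes called without overlap of groups, up to 4 from each list by smallest adjusted p in knockout against wild type EB, the genes nearest each limit, and the writers and erasers of H3K27me3. Others are said to be chosen after their values were seen. Promoters came from RefSeq (GRCm38.p6), the most upstream per gene. Some genes are not reported here by name.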

Additional observations from a re-analysis of the deposited data

Results flagged for a closer look

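In 42 of the named genes the KO effect on RNA in EB differed from that in ES by limma's interaction test over all genes. Values are the log2 effect in EB minus that in ES, and a positive value means that RNA was raised more, or lowered less, by p150 loss in EB than in ES. The largest positive values were those of Tdh (4.44), Tdrd12 (4.15), Rbmxl2 (4.03), Nr0b1 (3.96), L1td1 (3.90), Utf1 (3.79), Pou5f1 (3.75), Fgf4 (3.48), Fbxo15 (3.39), Eras (3.10), Zfp296 (3.10) and Tfcp2l1 (3.01). Values between 2 and 3 were those of Hspb1 (2.98), Trh (2.95), Cbx7 (2.85), Mt2 (2.81), Klf5 (2.72), Tcf15 (2.67), Tdgf1 (2.66), Krt42 (2.65), Klf9 (2.57), Ina (2.56), Jam2 (2.42), Foxd3 (2.40), Klf2 (2.26), Fgf17 (2.22), Krt17 (2.09), Sox2 (2.08) and Mt1 (2.06). Smaller positive values were those of Nodal (1.96), E130012A19Rik (1.51), Spry4 (1.30), Gfpt2 (1.11) and Epcam (0.66). Negative values were those of Cited4 (-2.81), Cldn5 (-2.67), Prkcdbp (-2.47), C2cd4b (-2.31), Pcolce (-2.27), Foxe1 (-2.17), Ppp1r1a (-1.05) and Gli1 (-0.89). E130012A19Rik is the listed name of Epop. The calls of Pcolce, Epcam, Spry4, Gli1 and Ppp1r1a were lost when some single libraries were left out, with the adjusted p of Epcam from 0.0226 to 0.0917, of Gli1 from 0.0254 to 0.101, of Pcolce from 0.0167 to 0.0931, of Ppp1r1a from 0.0167 to 0.107 and of Spry4 from 0.00962 to 0.0676 over the alternatives. The positive values cover most pluripotency genes of the set, and the negative ones include those of Cldn5, Foxe1, Prkcdbp, C2cd4b and Cited4, whose RNA was high in WT EB. Summed ES cell markers were 298 and 543 FPKM in WT EB and 7784 and 5520 in KO EB, and their part in these differences was not tested.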

How the results depend on the processing

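Counts of called genes of the set kept within 1.5 times of their values under most alternatives, with these exceptions. With only genes of a mean of at least 5 FPKM, 6 were called higher between ES and EB in WT, 11 lower in KO than in WT EB and 10 with a lower interaction. Without a filter 2 were called higher between ES and EB in the KO and 8 had a lower interaction, and with only the groups of the contrast 2 were called higher between ES and EB in the KO. The single calls in ES cells, KO against WT, became 0 higher in all alternatives and 0 lower with log2(FPKM + 0.1), without a filter, with the mean FPKM filter of 5 and with only the groups. Leaving out 1 library gave 12 to 18 higher and 148 to 165 lower between ES and EB in WT, 2 to 5 higher and 65 to 94 lower in the KO, 101 to 132 higher and 14 to 21 lower in KO than in WT EB, 0 to 0 higher and 0 to 1 lower in KO ES, and 79 to 92 higher and 8 to 14 lower for the interaction. With a replicate block, 18 were higher and 165 lower between ES and EB in WT, 133 higher and 21 lower in KO EB, and 0 higher and 1 lower in KO ES. Replicate numbers did not pair the samples (correlations of deviations from 0.07 to 0.31), so the block was kept as an alternative. For ChIP, the median H3K27me3 log2 ratio of KO EB over ES was 1.03 with a pseudocount of 0.5 and 1.64 with a ratio of at least 5. That of KO over WT EB was -1.98 with libraries divided by their medians, -2.01 for loci under 10 kb and -2.00 with a ratio of at least 5. The H3K4me3 log2 ratio of WT EB over ES was -0.65 with libraries divided by their medians and changed sign to 0.04 for loci under 10 kb. In the same pair of settings the H3K4me3 ratio of KO EB over ES was -0.02 and 0.22, and that of KO over WT ES was -0.04 and 0.07, while KO over WT EB was 0.22 for loci under 10 kb. The causes were not tested. Over the named genes 241 tests under an alternative lost their call, 38 gained one, 4106 stayed on the same side of the threshold, called or not, and 0 changed the sign of a call. With 1 library per ChIP group, no difference between ChIP libraries can be separated from library effects.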
